A study of Cricetulus griseus with 19 samples.

Results

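Ahr, the gene of the aryl hydrocarbon receptor, was followed as 1 transcript target of the 46718 quantified in each library. The target was found by its RefSeq accession, NM_001243990.1, which a table of Chinese hamster genes pairs with the symbol Ahr and gene identifier 100682538. It is the only target that the table assigns to this gene. The predicted transcripts that make up most of the targets carry no symbol, so other transcripts of the gene were not analysed here, and each value below is the level of this target. The record is 3110 nt long.

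The 19 libraries were made from polyadenylated RNA of CHO-K1, an established cell line from Chinese hamster ovary, in its Paradaux derivative, which carries a synthetic circuit that regulates cell number. Per the labels, 7 libraries came from long-term cultures under paradoxical feedback, 7 from cultures under negative feedback, 4 from cultures with uncontrolled growth, and 1 from the parental line. All were harvested on day 2 of growth at less than 80% confluence. The labels give no agent, dose or length of culture for any condition. They number the cultures without saying whether these were propagated separately, so the spread between them may be partly technical. Of the markers listed to check the cell line, 1 of 7 could be matched by name and none of 7 markers of other cell types, so the identity of the line was not checked further by markers. The marker matched was Actb, cytoskeletal actin, whose named target held 0 to 1.28 CPM over all libraries. A named target can therefore hold very little of what is normally abundant RNA of its gene.

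The aryl hydrocarbon receptor is a transcription factor of the bHLH-PAS family that is switched on by small aromatic ligands, among them dioxins and indoles derived from tryptophan. Without ligand it rests in the cytosol with the chaperone HSP90 and its partners. With ligand it moves to the nucleus, joins the related protein ARNT and binds short DNA elements near genes of xenobiotic metabolism, such as Cyp1a1. Auxin, the plant hormone that serves as the signal of the circuit, has an indole ring in its natural form.

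The Ahr target was detected in every library and was highest in 5 of the 7 negative feedback cultures. Levels are given as CPM, each library's count relative to its TMM-scaled total, for each culture in the order of its number. Under paradoxical feedback Ahr stood at 2.50, 3.85, 5.26, 6.72, 1.27, 2.78 and 13.1 CPM in cultures 1 to 7. Negative feedback cultures 1 and 2 held 3.39 and 3.41 CPM, while cultures 3 to 7 held 18.2, 27.6, 20.9, 25.5 and 16.8 CPM. It stood at 4.44, 2.65, 5.14 and 4.57 CPM in the uncontrolled cultures 1 to 4 and at 3.78 CPM in the parental library. Negative feedback cultures 3 to 7 thus lay above all other libraries, with paradoxical feedback culture 7 next, and cultures 1 and 2 under negative feedback lay within the range of uncontrolled cultures. In libraries of whole cultures, a higher level in all cells cannot be told apart from a larger share of cells that express the gene.

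**Figure D1:**
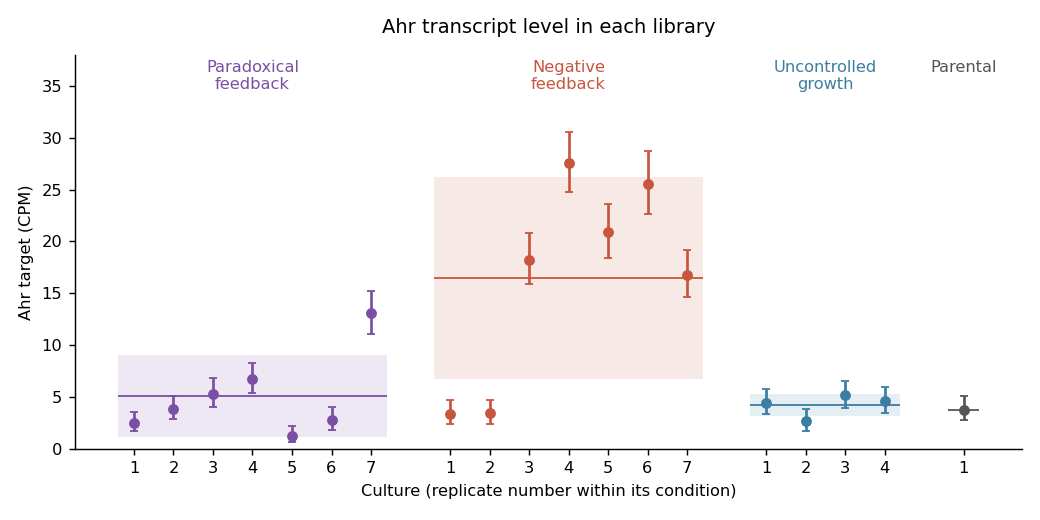
CPM of the Ahr target in each of the 19 libraries by culture condition, with exact Poisson 95% intervals of the read count as error bars, the mean of each condition as a line and 1 SD as a band. Negative feedback cultures 3 to 7 sit at 16.8 to 27.6 CPM, and the other 14 libraries at 1.27 to 13.1 CPM.

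These levels rest on few reads. The estimated count of Ahr was 13 to 163 reads under paradoxical feedback, 35.0 to 358 reads under negative feedback, 28.0 to 65.0 reads in uncontrolled cultures and 45.1 reads in the parental library. By counting error alone, the exact Poisson 95% interval ran from 0.678 to 2.18 CPM in paradoxical feedback culture 5 and from 11.1 to 15.2 CPM in culture 7, so these cultures of a single condition differed by more than counting error. The intervals of negative feedback cultures 1 and 2, 2.40 to 4.66 CPM and 2.37 to 4.74 CPM, did not reach the lowest interval among cultures 3 to 7, which was 14.6 to 19.2 CPM. The estimated counts exceeded a whole number by 0.0029 to 0.85 reads, so some reads were compatible with more than 1 target. Which other targets shared them is not recorded.

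Set in order of their means, the conditions ran from negative feedback at 16.5 ± 9.75 CPM (SD, n = 7) through paradoxical feedback at 5.07 ± 3.97 CPM (SD, n = 7) and uncontrolled growth at 4.20 ± 1.08 CPM (SD, n = 4) to the parental library at 3.78 CPM. The lower 3 of these are not separated by their spread. Medians were 3.85 CPM under paradoxical feedback, 18.2 CPM under negative feedback and 4.50 CPM in uncontrolled cultures, so that the order of paradoxical feedback and uncontrolled growth depended on the summary used. The highest culture of a condition exceeded the lowest by 10.3-fold under paradoxical feedback, by 8.15-fold under negative feedback and by 1.94-fold in uncontrolled growth. The SD of log2 CPM was 1.04, 1.29 and 0.40 for these conditions, at percentiles 69.8, 59.7 and 45.1 of 2567 tested targets whose mean log2 CPM was within 0.5 of that of Ahr. The spread of Ahr between cultures thus lay in the middle range for targets of its abundance.

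Per length, in TPM, which divides counts by target length and scales each library to a common total, the deposited values of Ahr were 0.402 to 5.88 TPM under paradoxical feedback, with a median of 1.61 TPM. They were 1.15 to 13.9 TPM under negative feedback, with a median of 9.03 TPM, and 0.951 to 1.85 TPM in uncontrolled cultures, with 1.45 TPM in the parental library. On this scale Ahr exceeded 59.2 to 75.7% of all targets under paradoxical feedback. In negative feedback cultures 3 to 7 it exceeded 77.5 to 81.8%, and in cultures 1 and 2 64.9 and 64.1%, against 62.5 to 68.1% in uncontrolled cultures. Ahr was thus above the middle of all 46718 targets in each of these cultures. Only 28555 of these targets had enough counts to be tested, and the rank of Ahr among those was not computed.

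The cultures with high Ahr were also those with few counts on short transcripts. Targets under 800 nt held 6.12 to 7.22% of the counts in negative feedback cultures 3 to 7, against 14.1 and 13.3% in cultures 1 and 2. They held 8.50 to 12.4% under paradoxical feedback and 12.2 to 13.4% in uncontrolled cultures, with 11.8% in the parental library. The same 5 negative feedback cultures lay at 158 to 221 on the first principal component of log2 CPM, which held 33.2% of the variance, and the other 14 libraries lay at -169 to 38. No pooled correlation is given, because the libraries fall into separate sets. Under paradoxical feedback alone, log2 CPM of Ahr and the share of short targets had a Pearson r of -0.84 over 7 cultures (exact permutation p = 0.0185, adjusted 0.0370 over 2 relations) and a Spearman rho of -0.82 (exact permutation p = 0.0341, adjusted 0.0682). Without cultures 5 and 6, the 2 farthest from the median share, r was -0.66 over 5 cultures. The second relation was with log2 CPM of the most abundant target not named as a RefSeq transcript, taken here as the inserted construct. That target was also present in the parental library, at 1703 CPM. The relation had r = -0.73 (exact permutation p = 0.0575, also 0.0575 adjusted) and rho = -0.54 (exact permutation p = 0.236, also 0.236 adjusted). Without cultures 4 and 7 r was -0.13, so the relation rested on those cultures. Whether the share of short transcripts plays a part in the Ahr level was not tested. A fit with that share as a covariate is given with each comparison. It cannot decide this, because the share comes from the same counts and follows the division of the negative feedback cultures.

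**Figure D2:**
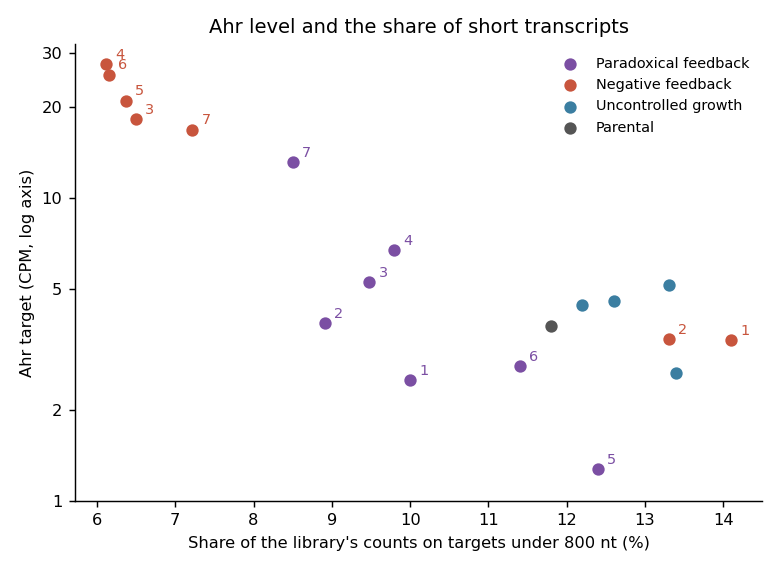
CPM of the Ahr target (log axis) against the percentage of each library's counts on targets under 800 nt, 1 point per library, with feedback cultures numbered. Negative feedback cultures 3 to 7 sit at 6.12 to 7.22% with the highest Ahr levels, and paradoxical feedback culture 7 has 13.1 CPM at 8.50%.

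Paradoxical feedback was compared with uncontrolled growth to ask whether Ahr differed where the signal of the circuit acts on both growth and death. The target averaged 5.07 ± 3.97 CPM (SD, n = 7) under paradoxical feedback and 4.20 ± 1.08 CPM in uncontrolled cultures (SD, n = 4), and the groups overlapped. The log2 fold change was 0.27 ± 0.62 (SE), with a 95% interval from -1.05 to 1.59, and edgeR's quasi-likelihood test gave an adjusted p of 0.843. The interval holds both a fall and a rise, so neither direction was established with these cultures. The difference of mean log2 CPM was -0.022 (exact two-sided permutation p = 0.976), of opposite sign to the fitted value. Without paradoxical feedback culture 7 the log2 fold change was -0.17. With the share of short targets as a covariate it was -1.07 ± 0.37 (edgeR adjusted p = 0.119).

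Negative feedback was compared with uncontrolled growth to ask the same where the signal limits growth. The negative feedback mean of 16.5 ± 9.75 CPM (SD, n = 7) stood against 4.20 ± 1.08 CPM for uncontrolled growth (SD, n = 4). Fitted on the log2 scale, the difference was 1.97 ± 0.67 with a 95% interval from 0.55 to 3.40. The test did not pass after adjustment over 28555 targets (edgeR adjusted p = 0.0684, range 0.00318 to 1.00 over 31 alternatives), and 5 of 7 negative feedback cultures lay above all uncontrolled cultures. The exact two-sided permutation test of log2 CPM gave a difference of 1.60 (p = 0.0545, adjusted 0.0818 over 3 comparisons). In the same comparison, edgeR called 8.65% of tested targets higher and called 1.11% lower. Before adjustment, 31.2% had a p under 0.05. These shares were not stable: the 2470 higher calls became 7 to 15 without any single uncontrolled culture, 8 with only the groups compared and 6 with the covariate of short targets. Limma-voom called 1637 targets higher and 3402 lower. The fold change of Ahr exceeded those of 83.2% of all tested targets and of 81.8% of the 6622 targets within 20% of its length.

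The fold change rested on cultures 3 to 7. Without these 5 cultures it was -0.30 ± 0.77 (edgeR adjusted p = 1.00), and without cultures 1 and 2 it was 2.35 ± 0.55 (edgeR adjusted p = 0.00318). Leaving out culture 1 or culture 2 alone also brought the adjusted p under the threshold, to 0.0225 and 0.0254 by edgeR. With the share of short targets as a covariate the value was -0.17 ± 0.40 (edgeR adjusted p = 1.00). DESeq2 called the target, with a log2 fold change of 1.99 ± 0.62 and an adjusted p of 0.00974, whereas limma-voom gave 1.66 ± 0.78 and 0.127. That all of cultures 3 to 7 lay above all of the other 14 libraries was true of 8.18% of tested targets, and of 20.1% of the 284 tested targets matched to a symbol, so this pattern was shared with many transcripts.

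In the direct comparison of both feedback conditions, Ahr averaged 5.07 ± 3.97 CPM under paradoxical feedback and 16.5 ± 9.75 CPM under negative feedback (SD, n = 7 each). The log2 fold change was -1.70 ± 0.54, with a 95% interval from -2.85 to -0.56, and did not pass (edgeR adjusted p = 0.129, range 0.00402 to 0.670 over 31 alternatives). All 7 paradoxical feedback cultures lay below negative feedback cultures 3 to 7, and they spanned the values of cultures 1 and 2. The exact two-sided permutation test gave a difference of -1.62 (p = 0.0291, adjusted 0.0818). In this comparison edgeR called 0.165% of targets higher and 0.105% lower, which is 47 and 30 targets. Both counts became 0 without uncontrolled culture 2 or 4, negative feedback culture 3, 4, 5 or 6, or paradoxical feedback culture 3, 5 or 6, and DESeq2 called 478 higher and 1316 lower. Without negative feedback cultures 3 to 7 the log2 fold change was 0.59 ± 0.73 (edgeR adjusted p = 0.670), and with the covariate of short targets it was -0.90 ± 0.29 (edgeR adjusted p = 0.109).

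The 3 long-term conditions were also set against the parental library. Its Ahr level, 3.78 CPM, lay within the ranges of paradoxical feedback, negative feedback and uncontrolled cultures. The log2 fold change was 0.90 ± 1.11 (edgeR adjusted p = 1.00), in a test that assumes a single parental library to vary like the cultures. With the covariate of short targets it was 0.19 ± 0.56 (edgeR adjusted p = 1.00).

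**Figure D3:**
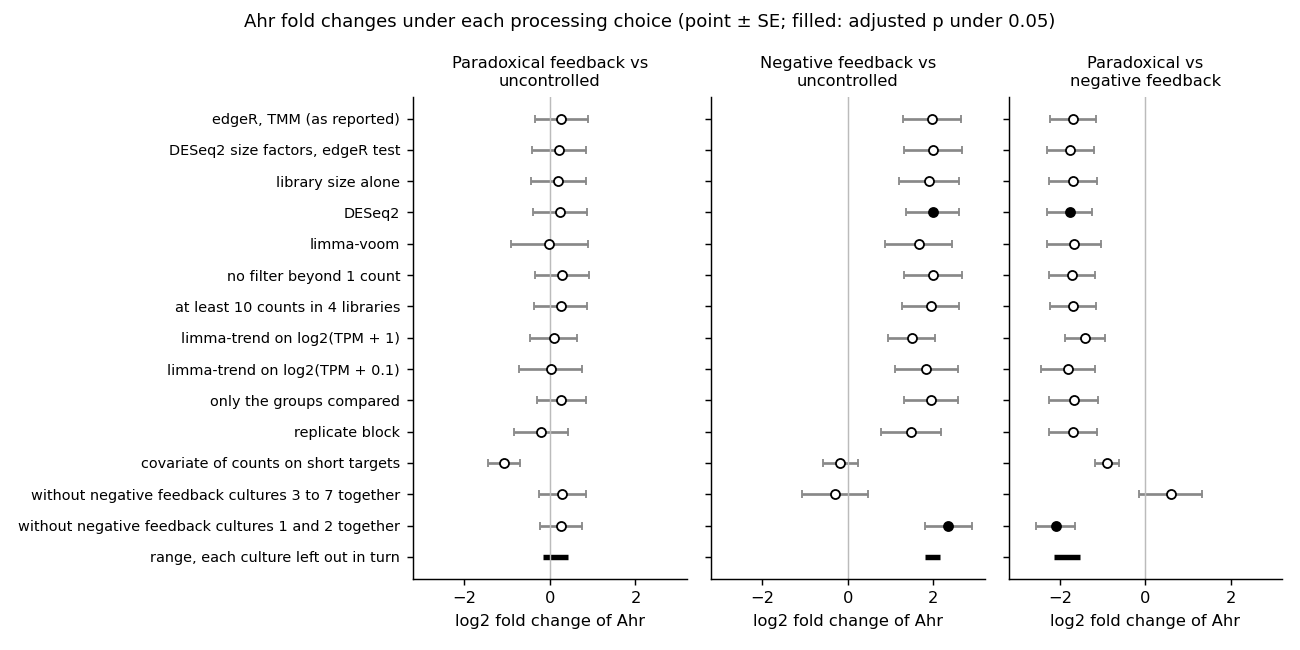
Log2 fold change of Ahr with its SE in 3 comparisons, under each processing choice named on the vertical axis, with filled points for an adjusted p under 0.05 and a bar for the range when each long-term culture is left out in turn. The negative feedback value of 1.97 becomes -0.30 without cultures 3 to 7 and -0.17 with the covariate of counts on short targets.

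The pathway around the receptor could be seen only in part. Of 114 genes in 7 lists besides Ahr, 15 were matched by name and 14 were tested. None of 12 bHLH-PAS relatives, such as Hif1a, and none of 16 enzymes that make or clear tryptophan-derived ligands was matched. Arnt, the repressor Ahrr and the most used reporter gene of the receptor, Cyp1a1, were likewise not matched, so receptor activity was not analysed here. Of the 14 tested genes, 7 were called higher and none lower under paradoxical feedback against uncontrolled growth, where edgeR called 4.93% of all targets higher and 1.5% lower and 19.7% of matched targets higher. Their median log2 fold change was 0.83, against 0.024 for all targets and 0.55 for matched targets. Without uncontrolled culture 1 or 2 none of the 14 was called, and without culture 3 or 4 there were 3 and 2. The 1408 higher and 427 lower calls among all targets fell likewise, to 109 and 18 without uncontrolled culture 1, 119 and 31 without culture 2, 530 and 114 without culture 3, and 436 and 110 without culture 4. Limma-voom called 1082 higher and 1507 lower. Under negative feedback 2 of the 14 were called higher and none lower, with a median of 0.41, against 0.041 for all targets and 0.43 for matched targets. In that comparison 27.8% of matched targets were called higher, and without any single uncontrolled culture none of the 14 was called. Between both feedback conditions edgeR called none of the 14 and DESeq2 called 1. By edgeR 6 of the 14 had an unadjusted p under 0.05, as did 17.6% of all tested targets.

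Chaperones that hold the resting receptor were higher under paradoxical feedback, where Ahr itself was not called. Hsp90aa1, an inducible form of HSP90, averaged 1115 ± 315 CPM under paradoxical feedback (SD, n = 7) and 480.5 ± 31.2 CPM in uncontrolled cultures (SD, n = 4). This was a difference of 1.21 ± 0.30 on the log2 scale (edgeR adjusted p = 0.0258). Hspa8, the constitutive Hsp70 that loads client proteins, and Stip1, which hands them from Hsp70 to HSP90, rose by 1.65 ± 0.33 and 0.95 ± 0.19. Both lost their call without uncontrolled culture 1 or 2, and Hsp90aa1 lost it without any single uncontrolled culture. Under negative feedback Hsp90aa1 rose by 1.20 ± 0.30 (edgeR adjusted p = 0.0252). It held 1107 to 1553 CPM in negative feedback cultures 3 to 7, against 522 to 553 CPM in the first pair, the same cultures in which Ahr was high and low. Without cultures 3 to 7 its log2 fold change was 0.16, and with the covariate of short targets 0.42 (edgeR adjusted p = 1.00 and 0.830). Under paradoxical feedback the covariate gave 0.79 for Hsp90aa1 (edgeR adjusted p = 0.0595). Hspa8 and Stip1 kept their calls there, at 1.31 and 0.87 (edgeR adjusted p = 0.0247 and 0.0295). Hspa8 and Stip1 were at 0.96 ± 0.32 and 0.43 ± 0.19 under negative feedback, in the fit without the covariate, and were not called. They divided the negative feedback cultures likewise. Hspa8 held 2487 to 3366 CPM in cultures 3 to 7 and 1023 to 1219.6 CPM in the first pair. Stip1 held 438 to 527 CPM and 346 to 361 CPM in the same sets.

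Single members of the other lists were called. Cbx3, a chromatin protein that binds methylated histone H3, rose by 0.70 ± 0.18 on the log2 scale under paradoxical feedback against uncontrolled growth (edgeR adjusted p = 0.0284), and Hdac5, the other tested member of the nuclear list, was not called. The Cbx3 call was lost without any single uncontrolled culture, and with the covariate of short targets, where the value was 0.57 (edgeR adjusted p = 0.0793). Parp1 was the only tested member of the turnover list and is known mainly for DNA repair. It rose by 1.25 ± 0.28 under paradoxical feedback (edgeR adjusted p = 0.0206). With the covariate of short targets it rose by 0.73 and was still called (edgeR adjusted p = 0.00908). Under negative feedback it rose by 1.31 ± 0.28, with 196 to 212 CPM in cultures 3 to 7 and 71.3 to 79.9 CPM in the first pair, against 59.7 to 73.9 CPM in uncontrolled cultures. That value was 0.17 without cultures 3 to 7 and 0.39 with the covariate (edgeR adjusted p = 1.00 and 0.640), and neither Parp1 call held without any single uncontrolled culture. Prdx1, a peroxiredoxin with shared reads, was among 4 tested genes listed here as targets of the receptor. It rose by 1.09 ± 0.25 under paradoxical feedback (edgeR adjusted p = 0.0211). None of the 4 was called under negative feedback, where their median log2 fold change was 0.27. Whether these genes respond to the receptor in this line was not tested. The Prdx1 call was lost without uncontrolled culture 1, 2 or 4. Among 4 tested genes of other xenobiotic metabolism, the glutathione peroxidase Gpx1 rose by 2.26 ± 0.65 under paradoxical feedback (edgeR adjusted p = 0.0467), a call kept in 12 of 31 alternatives. None of the 4 tested genes, of 31 listed as targets of the receptor, was therefore called in the comparison in which the fold change of Ahr was highest. The other listed target genes were not matched, so this gives no reading of receptor activity.

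**Figure D4:**
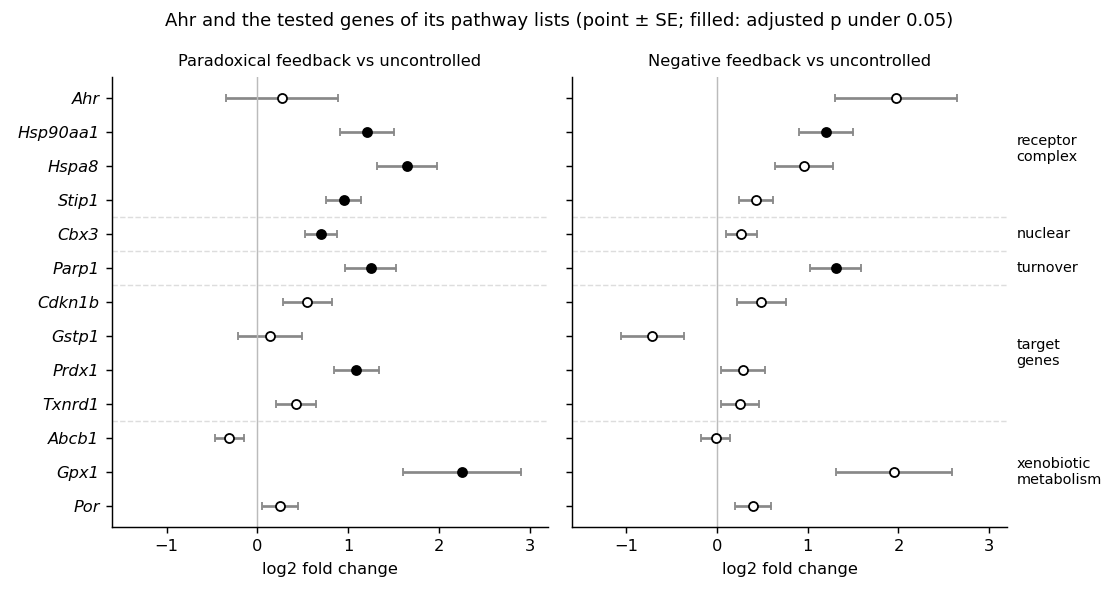
Log2 fold change with its SE for Ahr and the 12 tested genes of its lists whose mean log2 CPM was 1 or more, for paradoxical feedback (left) and negative feedback (right) against uncontrolled growth. Hsp90aa1, Hspa8, Stip1, Cbx3, Parp1, Prdx1 and Gpx1 are called under paradoxical feedback, where Ahr is at 0.27. Hsp90aa1 and Parp1 are called under negative feedback, where Ahr is at 1.97.

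The genes most like Ahr over the 19 libraries were Manea, Npc1, Slc1a4, Cep135 and Acaca, with Pearson r of log2 CPM of 0.90, 0.89, 0.88, 0.88 and 0.88. The correlations describe libraries that share the division of the negative feedback cultures, and 25 of 241 matched genes exceeded 0.8, around a median of 0.14. Manea encodes a Golgi mannosidase of glycan trimming, Npc1 a lysosomal cholesterol exporter, Slc1a4 a transporter of neutral amino acids, Cep135 a centriole protein and Acaca the carboxylase that makes malonyl-CoA for fatty acids. Over the 7 paradoxical feedback cultures alone r was 0.83 for Manea, 0.78 for Npc1, 0.96 for Slc1a4, 0.85 for Cep135 and 0.41 for Acaca. Without negative feedback cultures 3 to 7 it was 0.60, 0.63, 0.85, 0.57 and 0.36 in the same order. The likeness of Slc1a4 thus depended least on those cultures among these 5 genes. All 19 libraries, these subsets included, were used to choose the genes. The correlations are therefore descriptions and no separate test of the likeness.

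Slc1a4, chosen over libraries that include these, was highest and lowest in the same paradoxical feedback cultures as Ahr. It was at 43.3 CPM in culture 7, the highest of that condition, and at 3.92 CPM in culture 5, the lowest. In negative feedback cultures 3 to 7 it held 18.2 to 36.4 CPM and in the first pair 4.82 to 5.55 CPM, against 5.69 to 8.03 CPM in uncontrolled cultures. Its log2 fold changes of 1.36 ± 0.69 under paradoxical feedback and 1.75 ± 0.70 under negative feedback against uncontrolled growth are descriptions, as are those that follow, since these genes were chosen for a likeness to Ahr over the same libraries. Under negative feedback the log2 fold changes of Manea, Npc1, Cep135 and Acaca were 1.72 ± 0.47, 0.75 ± 0.20, 1.33 ± 0.36 and 1.85 ± 0.45. With the covariate of short targets they were 0.14, 0.26, 0.15 and 0.25.

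Among the genes least like Ahr was Rps14, which encodes a protein of the small ribosomal subunit. Its r was -0.93 over 19 libraries and -0.88 over the paradoxical feedback cultures. It was likewise chosen over all 19 libraries, so both values are descriptions. Rps14 held 321 to 398 CPM in negative feedback cultures 3 to 7, against 589 to 642 CPM in the first pair. It was at 418 CPM in paradoxical feedback culture 7 and 819.6 CPM in culture 5. At 535 nt Rps14 is one of the short targets.

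**Figure D5:**
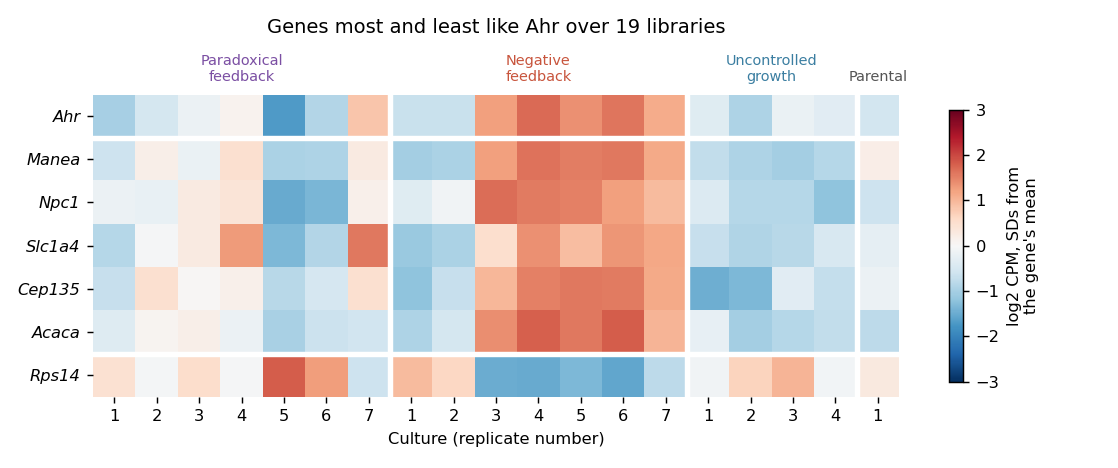
Log2 CPM of Ahr and of 5 genes most like it and 1 of those least like it in each library, in SDs from the mean of the gene over 19 libraries (color scale). Slc1a4 shares with Ahr a high level in paradoxical feedback culture 7 and a low one in culture 5, and Rps14 runs opposite to Ahr in negative feedback cultures 3 to 7.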

How the data were processed

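Per the submitters' processing notes, the tools were Trim Galore and kallisto, with no version named. The build is not given in the sources used. Per the file headers, the deposited files give an estimated count and a TPM value for each of 46718 targets. Depth was 9.91 to 13.2 M estimated counts a library. Targets were named by accession from a table of assembly CriGri-PICRH-1.0, which matched 527 of them, and no coordinates are printed. The gene and the list members were chosen with earlier results of these data known.

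Estimated counts were rounded, filtered with filterByExpr (28555 targets kept, 284 of them matched), scaled by TMM and tested by quasi-likelihood in edgeR 4.0.16 (R 4.3.3), with 1 coefficient per condition and all 19 libraries. P-values were adjusted by Benjamini-Hochberg over all tested targets, and called means an adjusted p under 0.05. Log2 CPM used a prior count of 2. DESeq2 1.42.0 and limma 3.58.1, limma also on log2(TPM + 1) and log2(TPM + 0.1), were alternatives. Shared reads means that an estimated count was not whole, within 1e-06, in some library. Intervals cover counting error only. Named genes are up to 3 called members per list, by smallest adjusted p, and the 5 most and 2 least like Ahr among matched genes whose mean log2 CPM was 1 or more. Exceptions are marked, and 1 gene that the rule takes is not reported here.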

Additional observations from a re-analysis of the deposited data

Results flagged for a closer look

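Of 67 sets of CPM values looked at, each for 1 gene in 1 condition, 5 held a culture far from the others of its condition, and chance gives about 1 in 20. None of them was a value of Ahr. In uncontrolled culture 3, Hspa8 was at 1875 CPM, against 885 to 1048 CPM in the other uncontrolled cultures, and Stip1 was at 406 CPM, against 299.6 to 316 CPM. The remaining values belong to targets near 0. Hdac5, a histone deacetylase with shared reads, was at 17.4 CPM in negative feedback culture 7 and at 3.03 CPM in paradoxical feedback culture 5, and Actb was at 1.10 CPM in negative feedback culture 7, while in the other cultures of those conditions these targets rounded to 0 counts.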

How the results depend on the processing

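Depth limits Ahr to 13 to 358 reads per library, and the target may not stand for the whole gene. Of 31 alternatives, the sign of the Ahr fold change held in 29 for negative feedback against uncontrolled growth, in 27 for paradoxical feedback against uncontrolled growth and in 30 between both feedback conditions; of 30 for the long-term cultures against the parental library it held in 30. For negative feedback against uncontrolled growth the value turned to -0.17 with the covariate of short targets and to -0.30 without negative feedback cultures 3 to 7, and was called at 1.99 by DESeq2 and at 2.35 without cultures 1 and 2. For paradoxical feedback against uncontrolled growth it turned to -0.0086 by limma-voom, -0.21 with the replicate block and -1.07 with the covariate. Between both feedback conditions it turned to 0.59 without negative feedback cultures 3 to 7 and was called at -1.77 by DESeq2 and -2.10 without cultures 1 and 2. With each culture left out in turn the 3 values ran from 1.80 to 2.15, from -0.17 to 0.43 and from -2.14 to -1.53. Differences of mean log2 CPM turned to -0.25 (negative feedback against uncontrolled) and 0.23 (between both) without cultures 3 to 7, where 2 cultures remain and the smallest p possible is 0.0667 and 0.0278, and to 0.09 on log2(TPM + 1) for paradoxical feedback against uncontrolled growth. The cause of these changes was not tested.

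The replicate numbers pair no samples by the labels, and deviations of same-numbered cultures had correlations of -0.16 to 0.11 over 15 pairs. With the number as a replicate block, Ahr was at 1.48 for negative feedback against uncontrolled growth, -1.70 between both feedback conditions and 0.014 against the parental library, and none of the 14 list genes was called in any comparison.

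Of the 14 list genes, 2 were called under negative feedback, against 4 by DESeq2, 0 without cultures 3 to 7, 7 without cultures 1 and 2, and 0 to 4 with each culture left out in turn. Under paradoxical feedback 7 were called, and 0 to 7 with each culture left out. Between both feedback conditions 0 were called, against 1 by DESeq2, 3 without cultures 3 to 7, 3 without cultures 1 and 2, and 0 to 1 with each culture left out. Without cultures 3 to 7, the fold changes of Manea, Cep135 and Acaca under negative feedback turned to -0.087, -0.0019 and -0.015. No target besides NM_001243990.1 was assigned to Ahr, so the sum over several targets was not run. Alternatives of list counts by block and by left-out cultures were chosen after seeing the data.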

Other observations

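Genes of the lists that were outside the rule for named genes are given here, chosen after their values were seen. Gstp1, a glutathione transferase counted among the receptor's target genes, was at 136 to 214 CPM in negative feedback cultures 3 to 7 and at 396 to 412 CPM in cultures 1 and 2, against 385 to 412 CPM in uncontrolled cultures. Its log2 fold change under negative feedback against uncontrolled growth, -0.71 ± 0.35, was not called (edgeR adjusted p = 0.167). These sets of cultures differed in many transcripts, so the lower Gstp1 level gives no reading of receptor activity. Under paradoxical feedback Gstp1 ran from 229 to 765 CPM. Txnrd1, a thioredoxin reductase, was at 1218 to 1372 CPM in negative feedback cultures 3 to 7 and 879.7 to 965 CPM in cultures 1 and 2, against 869 to 1087 CPM in uncontrolled cultures (0.25 ± 0.21 on the log2 scale, edgeR adjusted p = 0.440). Por, the reductase that supplies electrons to cytochrome P450 enzymes, was at 22.7 to 28.1 CPM in negative feedback cultures 3 to 7 and 16.8 to 17.6 CPM in cultures 1 and 2, against 15.1 to 21.9 CPM in uncontrolled cultures (0.40 ± 0.20 on the log2 scale, edgeR adjusted p = 0.185). Other list genes outside the rule did not all divide in this way. Cdkn1b was at 16.8 to 26.9 CPM in negative feedback cultures 3 to 7 and 17.9 to 18.5 CPM in cultures 1 and 2. Abcb1 was at 68 to 81.6 CPM and 65 to 68.9 CPM in the same sets, which also overlapped. Abcb1b, at low levels, held 0 to 1.02 CPM and 2.82 to 3.12 CPM. The share of all targets that divide these sets was not computed.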
